A study of Mus musculus with 6 samples.

Results

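Pck1, Gpd1, Gpd2 and Aqp7 are the 4 genes examined here, of 54532 genes in the deposited count table, and they were chosen by name for their part in making and moving the glycerol backbone of fat. All 4 were found in the table, and all 4 passed the filter on low counts. The tissue was iWAT (inguinal white adipose tissue, a fat depot under the skin) taken from old mice. There were 3 libraries from mice given estrogen and 3 from mice given vehicle, and every animal, vehicle included, had been in the cold for 7 days. The strain, sex, exact age, hormone dose and whether each library came from a separate animal are not stated in the labels. P-values therefore measure the spread between these libraries, which may be partly technical.

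A fat cell stores fatty acids by joining them to glycerol 3-phosphate. Glycerol 3-phosphate comes from glucose through dihydroxyacetone phosphate, or from pyruvate, lactate and amino acids through oxaloacetate and phosphoenolpyruvate, a route called glyceroneogenesis. White adipocytes are classically described as poor in glycerol kinase, so glycerol freed by lipolysis mostly leaves the cell through a channel. Brown and beige adipocytes, the heat-producing fat cells that cold induces, are known for more glycerol kinase and for a strong glycerol phosphate shuttle, in which a cytosolic and a mitochondrial dehydrogenase pass electrons from NADH to the respiratory chain.

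The upstream 250 bases of 3 of the 4 genes were read from RefSeq promoter windows on GRCm38.p6, which is the mm10 sequence, and no window for Gpd1 was in the table. They are shown because the factors that act at the Pck1 promoter were measured as a list in these libraries. Capitals mark the letters matched in a search of both strands for TTACGTCA (the cAMP response element described in the Pck1 promoter), TGACGTCA (the full form of that element), TATTTAAA (as described near the Pck1 start), TATATA (a core promoter box), the palindromic estrogen response element (by its consensus with a spacer of any 3 bases), AGGTCA (the core that nuclear receptors bind singly), the DR1 element (a direct repeat of that core with a spacer of any 1 base, bound by PPARG with RXRA) and TTGCNNAA (a C/EBP pattern). AGGTCA is part of the DR1 element and can overlap the estrogen response element.
Pck1, chr2:173152823-173153072, plus strand: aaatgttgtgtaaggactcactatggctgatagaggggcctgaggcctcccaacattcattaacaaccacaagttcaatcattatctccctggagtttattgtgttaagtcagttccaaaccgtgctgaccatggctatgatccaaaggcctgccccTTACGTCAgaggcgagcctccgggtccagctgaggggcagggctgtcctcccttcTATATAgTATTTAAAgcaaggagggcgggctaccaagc
Gpd2, first start, chr2:57237428-57237677, plus strand: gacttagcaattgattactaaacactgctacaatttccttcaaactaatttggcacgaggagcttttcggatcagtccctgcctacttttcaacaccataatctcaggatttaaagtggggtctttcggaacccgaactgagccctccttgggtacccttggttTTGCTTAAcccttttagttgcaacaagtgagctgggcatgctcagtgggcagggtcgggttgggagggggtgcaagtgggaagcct
Aqp7, first start, chr4:41048137-41048386, minus strand: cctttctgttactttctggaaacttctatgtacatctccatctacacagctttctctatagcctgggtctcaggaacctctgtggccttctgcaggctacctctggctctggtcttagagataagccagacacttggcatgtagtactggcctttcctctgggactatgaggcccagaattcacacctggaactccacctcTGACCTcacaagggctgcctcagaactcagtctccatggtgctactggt

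The Pck1 window held TTACGTCA 93 bases upstream of the RefSeq start, a string found in 0.447% of the 32851 promoter windows of this length. It also held TATTTAAA 31 bases upstream, found in 1.71% of windows, and TATATA, which reads the same on both strands, 38 bases upstream, found in 5.25%. The first Gpd2 window held 1 match to TTGCNNAA (9.56% of windows). The first Aqp7 window held AGGTCA, on the strand opposite to the gene, 49 bases upstream (14.0% of windows). The estrogen response element (0.0639% of windows), the DR1 element (0.0335%) and TGACGTCA (1.55%) were in none of the 3 windows shown. Each match is a description of letters.

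Before the genes are described, the libraries themselves differed in which other cells they held. The 8 adipocyte markers (Adipoq, Plin1, Plin4, Fabp4, Cidec, Cfd, Retn and Lipe) were detected in every library, and their summed level was 27864 to 47551 CPM with estrogen and 19488 to 29573 CPM with vehicle (TMM-scaled CPM, a gene's share of its library's counts after scaling by the trimmed mean of M values). The 5 skeletal muscle markers summed to 6315 CPM in estrogen replicate 1, against 2.57 and 3.60 CPM in estrogen replicates 3 and 2 and 2.74 to 58.8 CPM with vehicle, and Ckm and Myh4 had no count in estrogen replicates 2 and 3 or vehicle replicate 1. The 4 B cell markers summed to 102 and 66.9 CPM in estrogen replicates 1 and 3, against 3.40 CPM in estrogen replicate 2 and 2.08 to 3.77 CPM with vehicle. The 6 macrophage markers summed to 484 to 1584 CPM with estrogen and 2059 to 2986 CPM with vehicle. The 5 progenitor markers summed to 560 to 1180 CPM with estrogen and 1294 to 3124 CPM with vehicle. Krt14 and Krt5, of the 5 epithelial markers, had no count in any library. Total counts ran from 16046601 to 20736771. The part of these differences in the results that follow was not tested. Where a value without a library is given, it cannot separate that library's cells from its treatment or its other features.

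Per unit of transcript length, Gpd1 and Pck1 were among the most abundant genes of the tissue, and Gpd2 and Aqp7 were about an order of magnitude below them. By mean TPM (a share of transcripts, from counts divided by the deposited gene length, with no TMM scaling) over the 6 libraries, Gpd1 ranked 27 and Pck1 ranked 37 of all genes in the table, while Gpd2 ranked 833 and Aqp7 ranked 905. The TPM level of Gpd1 was 3172 ± 1093 with estrogen and 2169 ± 419 with vehicle (SD, n = 3 each), and that of Pck1 was 2110 ± 168 with estrogen and 2300 ± 488 with vehicle. Gpd1 lay above Pck1 in 5 of 6 libraries, with vehicle replicate 3 as the exception, but their group means differed by less than the larger SD in each group. Gpd2 was at 177 ± 48.5 TPM with estrogen and 126 ± 26.9 TPM with vehicle. Aqp7 was at 144 ± 13.7 TPM with estrogen and 138 ± 19.3 TPM with vehicle, so the order of Gpd2 and Aqp7 was also within the spread, and Gpd2 was the higher in 4 of 6 libraries.

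In TMM-scaled CPM, both glycerol 3-phosphate dehydrogenases lay higher in all 3 estrogen libraries than in any vehicle library, with fitted folds of 1.74 for Gpd1 and 1.65 for Gpd2, but in TPM, without TMM scaling, both genes overlapped between the groups. Pck1 and Aqp7 overlapped between the groups, with fitted folds of 1.11 and 1.26. None of the 4 passed the test (edgeR quasi-likelihood, adjusted over all 15591 tested genes), and neither did any other gene (0 of 15591 genes, 0%). DESeq2 also called 0 of the 4, where it called 386 genes higher (2.75%) and 468 lower (3.34%), together 6.09% of the 14026 genes that had an adjusted p. With limma-voom 0 of the 4 were called, and 0 genes in the whole table. At an unadjusted edgeR p under 0.05, 2 of the 4 were higher (Gpd1 and Gpd2) and 0 lower, where 1480 genes (9.49%) were higher and 1705 (10.9%) lower over the whole table, together 20.4%. The groups did not overlap in CPM, on the higher side, for 2 of the 4 and for 1996 genes (12.8%) of the table.

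**Figure D1:**
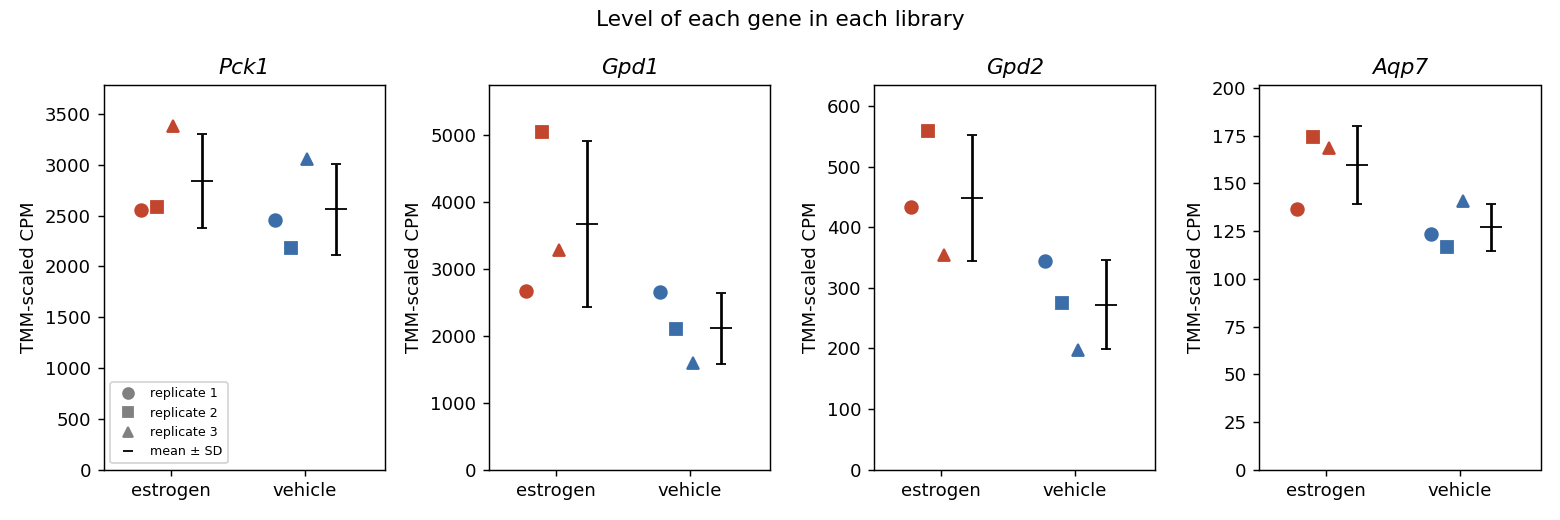
TMM-scaled CPM (vertical axes, each starting at 0) of Pck1, Gpd1, Gpd2 and Aqp7 in each library, estrogen left and vehicle right, with one symbol per replicate and the mean ± SD beside them. The estrogen points of Gpd1 (2667 to 5053 CPM) and Gpd2 (353 to 559 CPM) lie above all vehicle points (1590 to 2649 and 198 to 344 CPM), while those of Pck1 and Aqp7 overlap with vehicle.

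Pck1 encodes the cytosolic phosphoenolpyruvate carboxykinase, which turns oxaloacetate into phosphoenolpyruvate and is regarded as the key enzyme of glyceroneogenesis in fat (ENSMUSG00000027513, chromosome 2, 173153048 to 173159273, mm10, plus strand). Pck1 had 2560, 2585 and 3379 CPM in estrogen replicates 1, 2 and 3, and 2453, 2182 and 3052 CPM in vehicle replicates 1, 2 and 3. Replicate 3 was the highest of its group in both groups, and vehicle replicate 3 lay above 2 of the 3 estrogen libraries. Mean CPM (± SD, n = 3 each) was 2841 ± 466 in the estrogen group and 2562 ± 446 in the vehicle group, a log2 fold change of 0.15 ± 0.21 (SE, edgeR adjusted p = 0.696). The 95% interval of the fold ran from 0.789 to 1.56. The sign of this small difference depended on scaling, as the TPM means above have the opposite order, and leaving out 1 library gave log2 fold changes from 0.0084 (without estrogen replicate 3) to 0.29 (without vehicle replicate 3).

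Gpd1 encodes the cytosolic glycerol 3-phosphate dehydrogenase, which reduces dihydroxyacetone phosphate to glycerol 3-phosphate with NADH, and so serves both fat synthesis and the shuttle (ENSMUSG00000023019, chromosome 15, 99717515 to 99725005, plus strand). Gpd1 had 2667, 5053 and 3277 CPM in estrogen replicates 1, 2 and 3, and 2649, 2101 and 1590 CPM in vehicle replicates 1, 2 and 3. The lowest estrogen library and the highest vehicle library, replicate 1 in each, were almost level in CPM, and estrogen replicate 2 stood well above the rest. In TPM estrogen replicate 1 (2510 TPM) lay below vehicle replicate 1 (2560 TPM). Mean CPM (± SD, n = 3 each) was 3666 ± 1240 in the estrogen group and 2113 ± 529 in the vehicle group, a log2 fold change of 0.80 ± 0.30 (SE, edgeR adjusted p = 0.218, unadjusted p = 0.0327, DESeq2 adjusted p = 0.0766). The 95% interval of the fold ran from 1.06 to 2.84, unadjusted for the number of genes. The log2 fold change was 0.49 without estrogen replicate 2 and 0.97 without estrogen replicate 1, the library with the muscle markers, a tissue in which Gpd1 is also expressed.

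Gpd2 encodes the mitochondrial glycerol 3-phosphate dehydrogenase, an FAD enzyme of the inner membrane that hands the electrons of glycerol 3-phosphate to ubiquinone and is known for its high level in brown fat (ENSMUSG00000026827, chromosome 2, 57237635 to 57370719, plus strand). Gpd2 had 433, 559 and 353 CPM in estrogen replicates 1, 2 and 3, and 344, 274 and 198 CPM in vehicle replicates 1, 2 and 3. The groups did not overlap in CPM, but estrogen replicate 3 lay close to vehicle replicate 1. In TPM estrogen replicate 3 (125 TPM) lay below vehicle replicates 1 and 2 (150.3 and 131 TPM). Mean CPM (± SD, n = 3 each) was 449 ± 104 in the estrogen group and 272 ± 73.0 in the vehicle group, a log2 fold change of 0.72 ± 0.25 (SE, edgeR adjusted p = 0.209, unadjusted p = 0.0238, DESeq2 adjusted p = 0.0760). The 95% interval of the fold ran from 1.09 to 2.49. Single omissions gave 0.53 (estrogen replicate 2 left out) to 0.93 (vehicle replicate 1 left out) on the log2 scale.

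Aqp7 encodes an aquaglyceroporin, the channel through which adipocytes release glycerol (ENSMUSG00000028427, chromosome 4, 41033074 to 41048139, minus strand). Aqp7 had 137, 174 and 168 CPM in estrogen replicates 1, 2 and 3, and 124, 116 and 141 CPM in vehicle replicates 1, 2 and 3. Vehicle replicate 3 lay just above estrogen replicate 1, and the other 2 estrogen libraries were above all vehicle libraries. Mean CPM (± SD, n = 3 each) was 160 ± 20.3 in the estrogen group and 127 ± 12.5 in the vehicle group, a log2 fold change of 0.33 ± 0.15 (SE, edgeR adjusted p = 0.252), with a 95% interval of the fold from 0.992 to 1.60. Its spread within groups was the smallest of the 4, with a coefficient of variation of 12.7% with estrogen and 9.87% with vehicle, against 33.8% and 25.0% for Gpd1. Leaving out 1 library gave log2 fold changes from 0.27 to 0.42.

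Counts of 3 of the 4 genes could be shared with other genes. Gpd1 overlaps the exons of an antisense gene (Gm16537) over 384 bases and Gpd2 those of A930012O16Rik, on the other strand, over 487 bases in GENCODE M21, and the strand setting of the counting is not given. Those genes had 106 and 222 counts in all 6 libraries together. No transcript of another gene matched Pck1 over at least 100 bases at 95% identity, while Aqp7 transcripts matched 87 other genes, over at most 167 bases.

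The members differed in which library was highest. Relative to its own mean over the 6 libraries on the log2 CPM scale, Gpd1 was at 0.90 and Gpd2 at 0.71 in estrogen replicate 2, and at -0.77 and -0.79 in vehicle replicate 3. Pck1 was at 0.34 in estrogen replicate 3 and 0.19 in vehicle replicate 3, its 2 highest libraries, and was at -0.05 in estrogen replicate 2. The adipocyte markers were also highest in these, at 0.73 in estrogen replicate 3 and 0.06 in vehicle replicate 3. In bulk tissue, more adipocytes and more transcript per adipocyte cannot be told apart. Ucp1, the uncoupling protein of brown and beige adipocytes, was highest in estrogen replicate 2 (1752 CPM) and lowest in estrogen replicate 3 (10.2 CPM), and was at 332 to 906 CPM with vehicle. Cidea, Cox8b, Elovl3 and Cox7a1, the other markers of these cells, were also highest in estrogen replicate 2. Cox8b and Cox7a1 were lowest in estrogen replicate 3 (116 and 5.84 CPM), but Cidea and Elovl3 in vehicle replicate 3 (108 and 15.1 CPM).

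**Figure D2:**
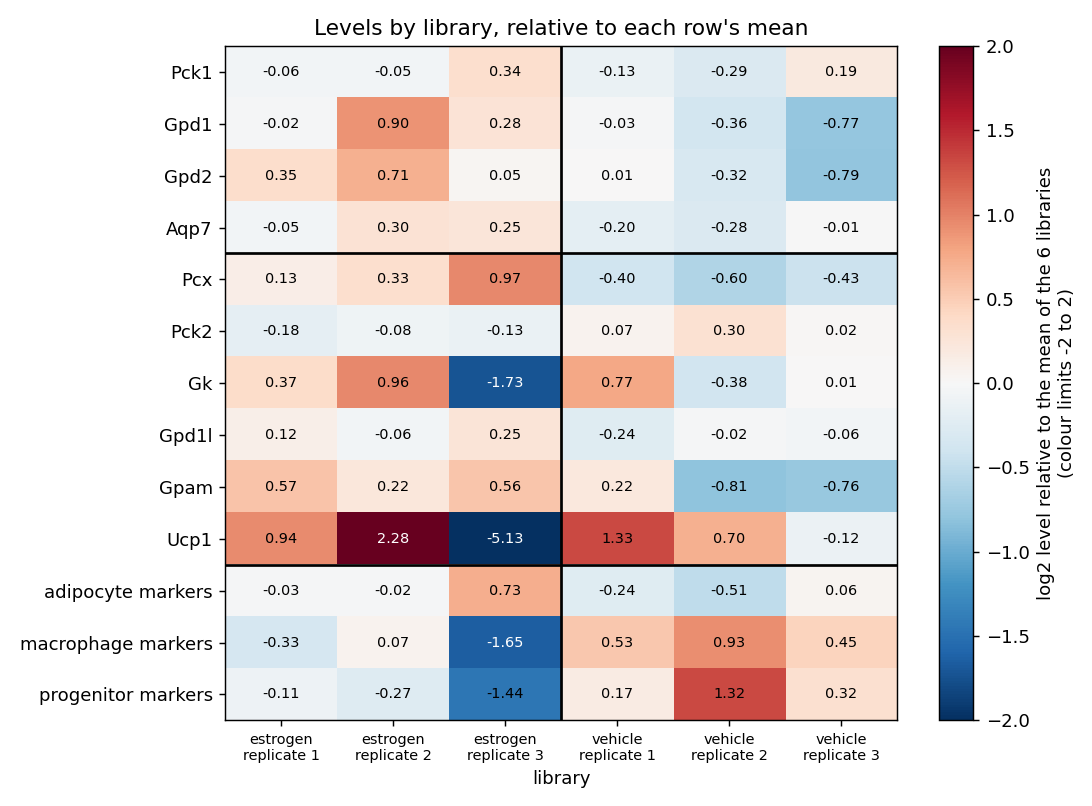
Log2 level of the 4 genes (top block), of 6 related genes (middle block) and of 3 marker lists (bottom block) in each library, relative to each row's mean over the 6 libraries, with estrogen libraries left of vehicle libraries and colours limited to -2 to 2. Gpd1 and Gpd2 peak in estrogen replicate 2, Pck1 and Pcx in estrogen replicate 3, and Gk and Ucp1 are at -1.73 and -5.13 in estrogen replicate 3.

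Set against the mean of the 8 adipocyte markers in the same library, the differences between the groups were smaller for Gpd1 and Gpd2 and negative for Pck1 and Aqp7. The log2 difference of Pck1 to these markers was 0.10, 0.11 and -0.26 in estrogen replicates 1, 2 and 3, and 0.25, 0.35 and 0.26 in vehicle replicates 1, 2 and 3. All 3 estrogen values lay below all vehicle values, with a mean of -0.017 ± 0.21 with estrogen and 0.29 ± 0.053 with vehicle (SD, exact two-sided permutation p = 0.1, the smallest that 3 against 3 can give, and 0.45 adjusted over the 9 ratios). The change in this log2 difference, estrogen minus vehicle, was 0.32 for Gpd1, 0.28 for Gpd2 and -0.13 for Aqp7, each within the spread of the libraries (exact permutation p = 0.6, 0.5 and 0.8). For Pck1 the difference of -0.30 was -0.18 without estrogen replicate 3. The values were -0.065 for Gpd1 and -0.020 for Gpd2 without estrogen replicate 2, and -0.016 for Gpd1 and -0.079 for Gpd2 without vehicle replicate 3. They were 0.63 for Gpd1, 0.69 for Gpd2 and 0.083 for Aqp7 without estrogen replicate 3.

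The 2 dehydrogenases of the shuttle kept a nearly fixed proportion in the vehicle libraries. Per kilobase, Gpd1 counts were 13.6, 20.0 and 20.5 times those of Gpd2 in estrogen replicates 1, 2 and 3, and 17.0, 16.9 and 17.8 times in vehicle replicates 1, 2 and 3. The log2 ratio was 4.15 ± 0.33 with estrogen and 4.11 ± 0.038 with vehicle, a difference of 0.041 (exact two-sided permutation p = 1). Estrogen replicate 1, with the muscle markers, had the lowest ratio of all 6, and without it the difference was 0.23, while it was -0.064 without estrogen replicate 3.

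An enzyme that acts before Pck1 on the route from pyruvate had the larger difference between the groups. Pcx, the pyruvate carboxylase that makes oxaloacetate on that route, had 2207, 2544 and 3943 CPM in estrogen replicates 1, 2 and 3. It had 1529, 1330 and 1493 CPM in vehicle replicates 1, 2 and 3. Its log2 fold change was 0.999 ± 0.25 (SE, edgeR adjusted p = 0.207, DESeq2 adjusted p = 0.00526). Per kilobase, Pck1 was 1.57, 1.37 and 1.16 times Pcx with estrogen, and 2.17, 2.22 and 2.76 times Pcx with vehicle, again in the order of the replicates. These ratios did not overlap between the groups, and their log2 mean was 0.44 ± 0.22 with estrogen and 1.24 ± 0.19 with vehicle, a difference of -0.80 (SD, exact two-sided permutation p = 0.1, the smallest possible, 0.45 adjusted over the 9 ratios). Leaving out each library in turn, this difference ran from -0.91 to -0.69.

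Pck2, the mitochondrial isoform of the carboxykinase, was a minor form in this tissue. It was at 7.54 ± 0.604 TPM with estrogen and 10.9 ± 1.42 TPM with vehicle, against the Pck1 levels of 2110 and 2300 TPM. In TMM-scaled CPM, Pck2 had 22.0, 23.7 and 23.0 in estrogen replicates 1, 2 and 3, and 26.3, 31.0 and 25.5 in vehicle replicates 1, 2 and 3. The groups did not overlap, as for 2290 genes (14.7%) of the table on the lower side. The log2 fold change was -0.27 ± 0.12 (SE, edgeR adjusted p = 0.258), and -0.18 without vehicle replicate 2. The log2 ratio of Pck1 to Pck2 was 8.13 ± 0.23 with estrogen and 7.71 ± 0.38 with vehicle, a difference of 0.42 (exact permutation p = 0.3), and 0.22 without vehicle replicate 2.

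Gk, the glycerol kinase that returns freed glycerol to glycerol 3-phosphate, was detected in all libraries at 17.7 ± 12.6 TPM with estrogen and 19.9 ± 7.19 TPM with vehicle, below the 144 and 138 TPM of Aqp7. Gk had 56.6, 85.5 and 13.2 CPM in estrogen replicates 1, 2 and 3, and 75.1, 33.7 and 44.1 CPM in vehicle replicates 1, 2 and 3. Its highest and lowest libraries, estrogen replicates 2 and 3, were also the highest and lowest for Ucp1, but Cidea and Elovl3 were lowest in vehicle replicate 3. The log2 fold change of 0.026 ± 0.61 (SE, edgeR adjusted p = 0.985) changed sign without any of 4 libraries and lay between -0.54 (without estrogen replicate 2) and 0.49 (without estrogen replicate 3). Per kilobase, Aqp7 was 6.60, 5.58 and 34.9 times Gk in estrogen replicates 1, 2 and 3, and 4.51, 9.46 and 8.74 times Gk in vehicle replicates 1, 2 and 3. The difference between the groups in this log2 ratio was 0.595, -0.25 without estrogen replicate 3 and 1.08 without estrogen replicate 2 (exact permutation p = 0.8 with all libraries).

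**Figure D3:**
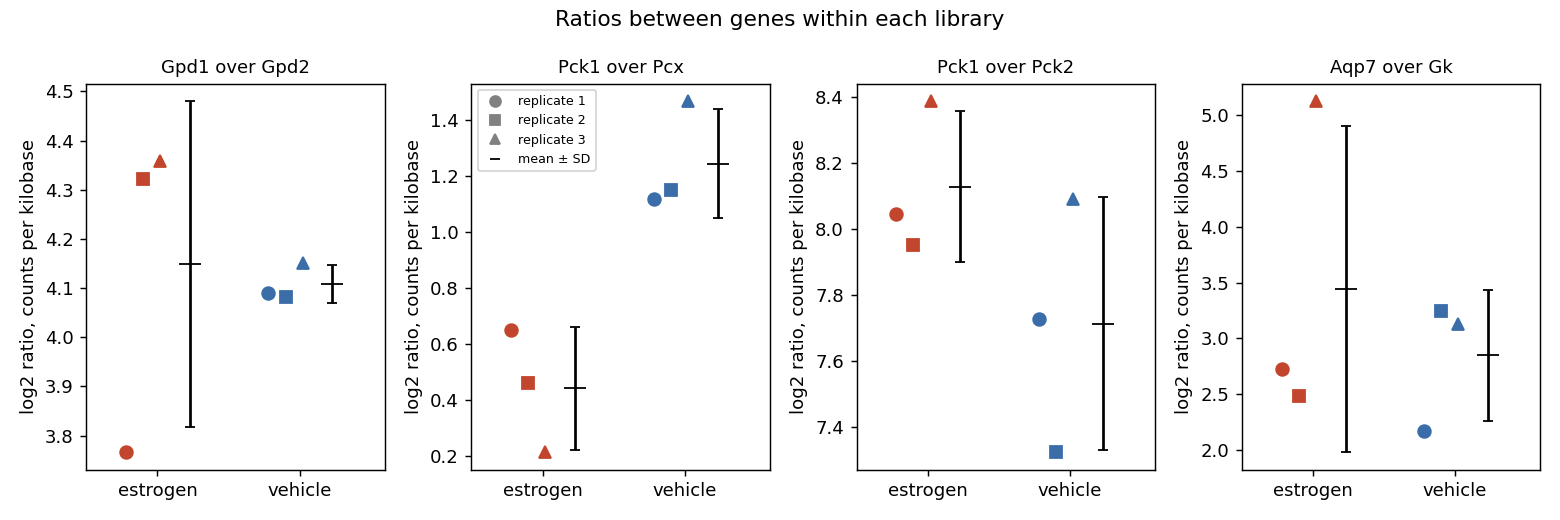
Log2 ratios of counts per kilobase between genes in each library (vertical axes, which do not start at 0), estrogen left and vehicle right, with one symbol per replicate and the mean ± SD. Pck1 over Pcx is the panel in which the groups do not overlap (0.21 to 0.65 with estrogen, 1.12 to 1.47 with vehicle), and Gpd1 over Gpd2 spans 3.77 to 4.36 with estrogen and 4.08 to 4.15 with vehicle.

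Close relatives of the 4 genes were low. Gpd1l, a Gpd1-like dehydrogenase, was at 28.3 ± 2.76 TPM with estrogen and 29.4 ± 3.91 TPM with vehicle, and Gpd1 was 80.8, 174 and 90.6 times as abundant per kilobase in estrogen replicates 1, 2 and 3, and 103, 70.1 and 54.5 times in vehicle replicates 1, 2 and 3. The difference in that log2 ratio was 0.56 (exact permutation p = 0.3), and 0.22 without estrogen replicate 2. Aqp3, another glycerol channel, had 7, 1 and 3 counts in estrogen replicates 1, 2 and 3 and 1, 0 and 2 counts in vehicle replicates 1, 2 and 3, too few to test. Aqp9, the glycerol channel best known from liver, had 13, 22 and 7 counts with estrogen and 70, 34 and 22 counts with vehicle, a log2 fold change of -1.25 ± 0.61 (SE, edgeR adjusted p = 0.282). It was -0.62 without vehicle replicate 1, in which the 3 neutrophil markers summed to 100.2 CPM, against 12.3 to 19.8 CPM with estrogen and 12.3 and 13.7 CPM in vehicle replicates 2 and 3, and the part of these cells in the result was not tested. Aqp11, a further aquaporin of the glycerol transport list, had 114, 116 and 186 counts in estrogen replicates 1, 2 and 3. It had 94, 67 and 91 counts in vehicle replicates 1, 2 and 3. Its log2 fold change was 1.12 ± 0.33 (SE, edgeR adjusted p = 0.207, DESeq2 adjusted p = 0.0407). Aqp7 therefore had most of the counts among Aqp7, Aqp3, Aqp9 and Aqp11 in this tissue.

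A list of 18 other genes covered the route to glycerol 3-phosphate and glycerol transport. It also held Pgp and Slc25a1, which by their functions given below neither lead to glycerol 3-phosphate nor carry glycerol. Of the 18 genes, 17 were tested (Aqp3 was too low), and 15 had a positive and 2 a negative log2 fold change. Their median was 0.33, against 0.0025 over all tested genes, of which 50.3% were positive, and with scaling to the adipocyte markers it was -0.11, against -0.43 over all tested genes. By edgeR 0 were called in either direction and 9 had an unadjusted p under 0.05, all higher, while DESeq2 called 6 higher and 0 lower. Over the whole table, 9.49% of tested genes were higher at that unadjusted p, and DESeq2 called 2.75% higher. The genes of smallest p were Aldoa, the aldolase that yields dihydroxyacetone phosphate (log2 fold change 0.87), Pcx (0.999), Pgp, the phosphatase that splits glycerol 3-phosphate (0.53), and Slc25a1, the mitochondrial citrate carrier (1.09). Aldoa had 3409, 3901 and 3625 CPM in estrogen replicates 1, 2 and 3, and 2274, 1975 and 1731 CPM in vehicle replicates 1, 2 and 3 (DESeq2 adjusted p = 6.44e-05), and it is also strongly expressed in muscle. The list overlaps with sets in which a tendency to higher values was already known in these libraries, so it is no independent evidence.

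Genes of glycerol release and of glycerol 3-phosphate acylation mostly had higher values with estrogen. Of 13, 12 were tested (Gpat2 was too low), and 12 of 12 were positive. The median log2 fold change was 0.67 (0.17 with scaling to the adipocyte markers, against -0.43 over all tested genes). Without estrogen replicate 3 the list median was 0.42. Lipe, the hormone-sensitive lipase, belongs both to this list and to those markers. By edgeR 0 were called and 10 had an unadjusted p under 0.05, all higher, while DESeq2 called 5 higher. Over the whole table, 50.3% of tested genes were positive, 9.49% were higher at that unadjusted p, and DESeq2 called 2.75% higher. Gpam, the mitochondrial glycerol 3-phosphate acyltransferase that consumes the product of Gpd1, had 280, 222 and 280 CPM in estrogen replicates 1, 2 and 3, and 221, 109 and 112 CPM in vehicle replicates 1, 2 and 3, a log2 fold change of 0.83 ± 0.29 (SE, edgeR adjusted p = 0.212). The lowest estrogen and the highest vehicle library were level, and without vehicle replicate 1, the log2 fold change was 1.24. The genes of smallest p were Lpin1, a phosphatidate phosphatase (0.69), Agpat2, the next acyltransferase (0.82), Pnpla2, the lipase that starts lipolysis (0.85), and Gpat4, an acyltransferase of the endoplasmic reticulum (0.65).

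**Figure D4:**
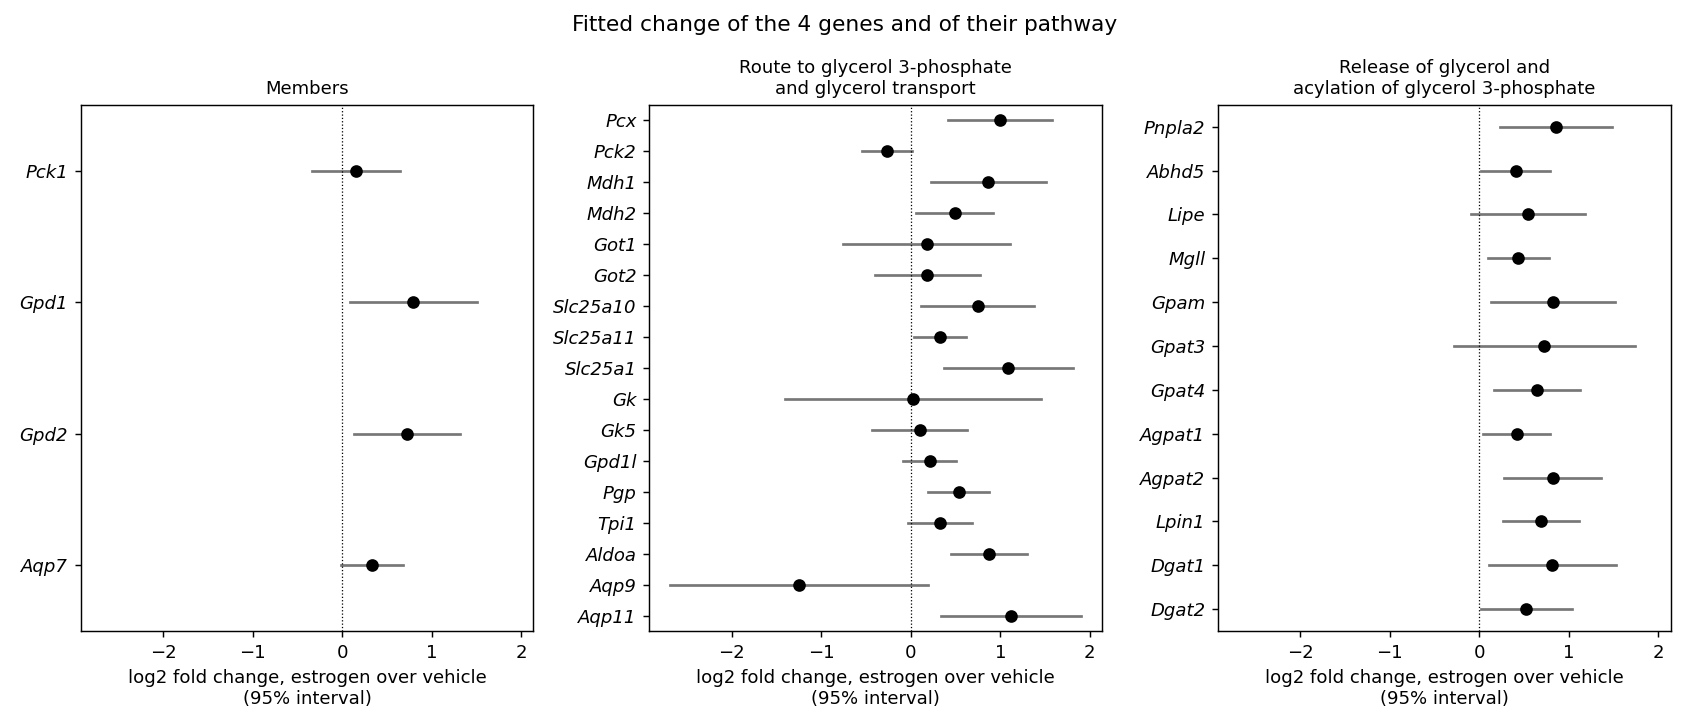
Fitted log2 fold changes with TMM scaling, estrogen over vehicle, with 95% intervals unadjusted for the number of genes, for the 4 genes (left), 17 genes of the route to glycerol 3-phosphate and of glycerol transport (middle) and 12 genes of glycerol release and acylation (right). Most points lie right of 0, and Pck2 (-0.27) and Aqp9 (-1.25) lie left of it. The intervals of Pck2, Aqp9, Gk (0.026) and several other genes, Pck1 and Aqp7 among them, span 0.

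Factors known to act at the Pck1 gene showed no common direction. Of the 12, 7 were positive and 5 negative, with a median log2 fold change of 0.11 (0.019 without vehicle replicate 2). With scaling to the adipocyte markers the list median was -0.34, against -0.43 over all tested genes. Over the whole table, 50.3% of tested genes were positive, and 9.49% were higher and 10.9% lower at an unadjusted edgeR p under 0.05. DESeq2 called 2.75% higher and 3.34% lower. Of the list, edgeR called 0, with 2 higher and 1 lower at an unadjusted p under 0.05, and DESeq2 called 1 lower. That gene was Creb1, a factor that binds cAMP response elements, at 28.4, 25.0 and 24.1 CPM in estrogen replicates 1, 2 and 3, and 41.0, 37.0 and 36.0 CPM in vehicle replicates 1, 2 and 3. Its log2 fold change was -0.55 ± 0.12 (SE, edgeR adjusted p = 0.207, DESeq2 adjusted p = 0.0224). The other genes of smallest p were Esr1, the estrogen receptor alpha (0.62), Esrra, an estrogen-related receptor that acts on mitochondrial genes (0.48), and Cebpa, an adipocyte factor (0.57).

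The malate-aspartate shuttle, the other route by which cytosolic NADH reaches the respiratory chain, had 6 of 7 genes positive. Its median log2 fold change was 0.31 (-0.11 with scaling to the adipocyte markers, against -0.43 over all tested genes). Most of its genes are also in the route to glycerol 3-phosphate. Over the whole table, 50.3% of tested genes were positive, 9.49% were higher at an unadjusted edgeR p under 0.05, and DESeq2 called 2.75% higher. Of the list, edgeR called 0, with 3 higher and 0 lower at an unadjusted p under 0.05, and DESeq2 called 1 higher. That gene was Mdh1, the cytosolic malate dehydrogenase (0.87), and the others of smallest p were Mdh2 (0.49), Slc25a11, the malate carrier (0.33), and Slc25a13, an aspartate carrier (-0.95). The list median was -0.16 without estrogen replicate 1, the library with the muscle markers. In that library Slc25a12, the other aspartate carrier, was at 39.1 CPM, against 11.2 and 7.51 CPM in estrogen replicates 2 and 3 and 13.9 to 16.9 CPM with vehicle.

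The genes whose pattern was most like each of the 4 were found by the root mean square difference of mean-centred log2 CPM over the 6 libraries, among the 7811 tested genes whose mean log2 CPM reached 4. For Gpd1 these included Kcnk3 (0.12), a potassium channel gene. For Gpd2 they included Mid1ip1 (0.12), a regulator of acetyl-CoA carboxylase, and P2rx5 (0.14), a purinergic receptor gene. For Pck1 they were Sirt1 (0.028), which encodes a deacetylase, Dram1 (0.055) and Ell (0.058), and for Aqp7 they were Mrpl22 (0.054), Rnf170 (0.056) and Emc9 (0.058). With this many genes and 6 libraries, close matches are found for any pattern.

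Over 15 other settings, the log2 fold change ran from 0.36 to 1.27 for Gpd1, from 0.31 to 1.05 for Gpd2, from -0.29 to 0.29 for Pck1 and from -0.095 to 0.46 for Aqp7. None of these settings called any of the 4, but most of them called 0 genes in the whole table. DESeq2 called 386 genes higher and 468 lower, and the fit without estrogen replicate 2 called 13 higher. When libraries were scaled to the adipocyte markers, Pck1 was at -0.29 and Aqp7 at -0.095, while the median of all tested genes was at -0.43. Relative to that median, the values were 0.80 for Gpd1, 0.74 for Gpd2, 0.14 for Pck1 and 0.34 for Aqp7.

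**Figure D5:**
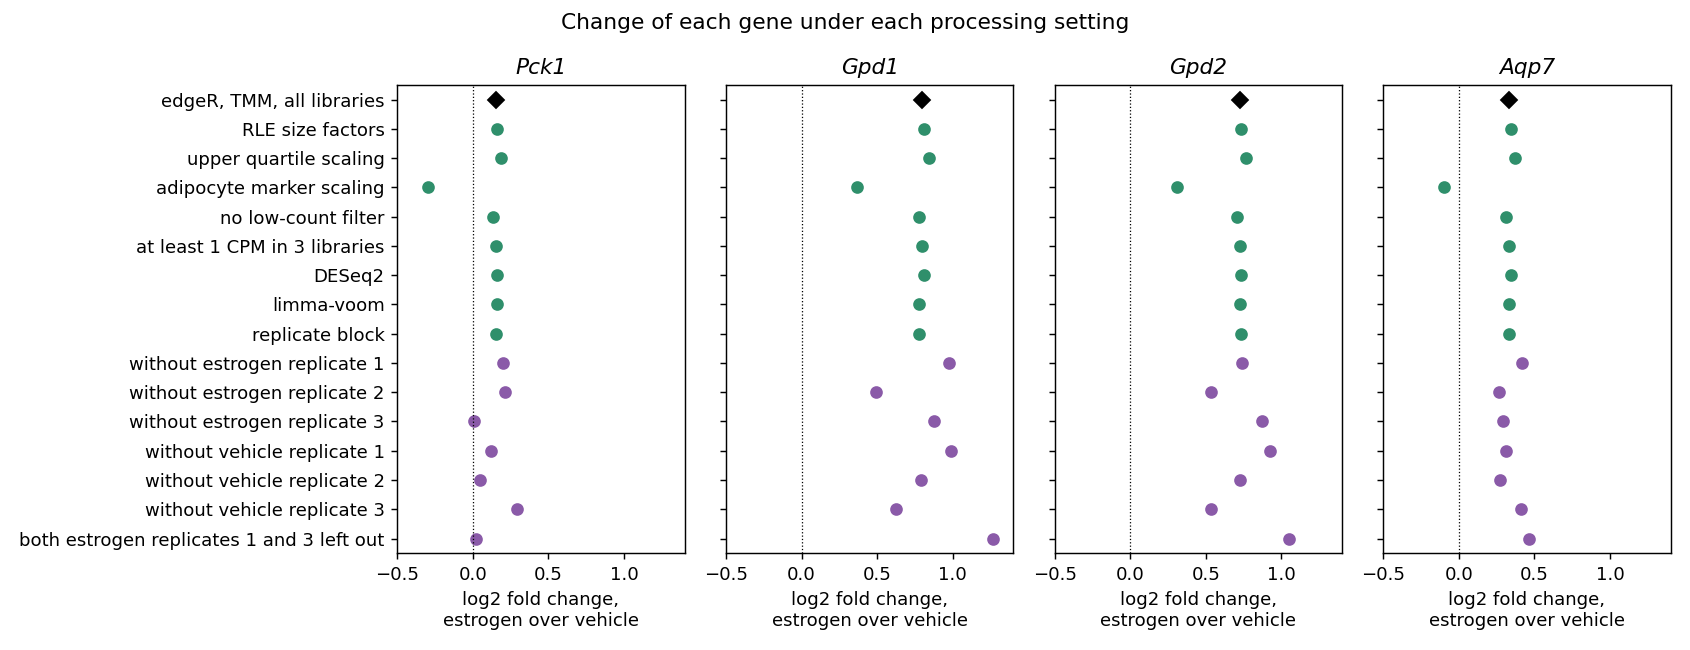
Log2 fold change, estrogen over vehicle, of each of the 4 genes (panels) under each setting (rows), with the main setting as a diamond, other scalings, filters and tests in green, and left-out libraries in purple. Gpd1 and Gpd2 stay right of 0 in every row, and Pck1 and Aqp7 cross it under adipocyte marker scaling (-0.29 and -0.095).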

How the data were processed

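RNA sequencing of iWAT gave 6 libraries, 3 with estrogen and 3 with vehicle. The authors deposited a table of whole-number read counts without normalization, holding 54532 Ensembl genes with their coordinates and lengths. HISAT2, featureCounts and the mm10 build are named in the submitters' processing notes, and versions, strand setting, treatment of multi-mapping reads and annotation release are not stated there. Groups and replicate numbers came from the sample titles. Coordinates and exon lengths of the 4 genes equal those of GENCODE M21.

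Counts were filtered with filterByExpr (15591 genes kept), TMM-scaled and tested by edgeR's quasi-likelihood F test (edgeR 4.0.16, limma 3.58.1, DESeq2 1.42.0, R 4.3.3) at a threshold of 0.05 after Benjamini-Hochberg adjustment over the tested genes. DESeq2 and limma-voom used the same filter. Standard errors came from the F statistic. Within-library ratios used an exact permutation test. For a repeated symbol the row with most counts was used. Marker scores used a pseudocount of 0.5 CPM. The fitting steps were tested on simulated counts. Chi-square per degree of freedom between libraries of a group was 41.7 to 88.6, so none were duplicates.

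The 4 genes and all lists were chosen with earlier results of these data known. Named were the 4 genes, 7 related genes whatever their values (Gk, Gpd1l, Pcx, Pck2, Aqp3, Aqp9, Gpam), up to 4 genes of smallest p per list and the 3 genes most like each of the 4, some of which are not reported here. Other genes named beside these were chosen after their values were seen. A count of 3, the detection floor, equals 0.145 to 0.187 CPM before TMM scaling, and it covers counting error only.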

Additional observations from a re-analysis of the deposited data

How the results depend on the processing

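None of 60 values for the 4 genes under other settings passed the threshold, but most of these settings called 0 genes in the whole table. Of the 60 values, 58 kept their sign. The exceptions came from scaling to the adipocyte markers, with Pck1 at -0.29 and Aqp7 at -0.095. That scaling also put Gk at -0.23, Gpd1l at -0.25 and the list medians at -0.11 (route to glycerol 3-phosphate), 0.17 (release and acylation), -0.34 (Pck1 factors) and -0.11 (malate-aspartate shuttle), with 169 genes higher and 2192 lower at an unadjusted p under 0.05, against 1480 and 1705. The median of all tested genes was then at -0.43. DESeq2 called 386 genes higher and 468 lower, with 6, 5, 1 and 1 genes in the 4 lists in that order. Gk was at -0.24 with limma-voom, and without single libraries at -0.54 to 0.49. The cause was not tested.

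Leaving out each library in turn, list medians ran from 0.29 to 0.47 for the route to glycerol 3-phosphate, from 0.42 to 0.75 for release and acylation, from 0.019 to 0.22 for the Pck1 factors and from -0.16 to 0.50 for the malate-aspartate shuttle, and 0 to 13 genes were called higher (13 without estrogen replicate 2). Without vehicle replicate 2, 647 genes were higher and 812 lower at an unadjusted p under 0.05. With estrogen replicates 1 and 3 both left out, a setting chosen after seeing the data in which the lone estrogen library is assumed to vary like the vehicle ones, Pck1 was at 0.020, Gpd1 at 1.27, Gpd2 at 1.05 and Aqp7 at 0.46, 1 gene was called higher, the route median was 0.46, and 924 genes were higher and 696 lower at an unadjusted p under 0.05.

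With the replicate number as a block, log2 fold changes were 0.15 for Pck1, 0.78 for Gpd1, 0.73 for Gpd2, 0.33 for Aqp7 and -0.26 for Gk, and 0 genes were called. These are the numbers in the sample titles. The deposited counts of replicate 2 are headed Veh_3 and E2_2, so that pair does not share a number there. Deviations of same-numbered libraries from their group means correlated at -0.126 to 0.282, against -0.351 to 0.178 for other pairs. Of 6 libraries, 3 correlated best with their own number. With 3 libraries per group, these values cannot tell whether same-numbered libraries share more than a number. Aqp3 and Gpat2 were too low to test at this depth.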
